A study of Mus musculus with 2 samples.

Results

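The cell cycle and mitosis genes described here are 34 genes chosen by name, among 24346 genes listed for whole mouse omentum. They fall into 11 genes of DNA replication and nucleotide supply (Mcm2 to Mcm7, Pcna, Rrm1, Rrm2, Tyms and Tk1), 3 regulators of entry into S phase (Ccne1, Ccne2 and E2f1) and 20 mitotic genes (Mki67, Top2a, Ccnb1, Ccnb2, Cdk1, Birc5, Ccna2, Bub1, Bub1b, Aurka, Aurkb, Plk1, Cdc20, Cenpe, Cenpf, Kif11, Kif20a, Nusap1, Tpx2 and Ube2c). The question was whether the replication genes and the mitotic genes differed alike between the genotypes.

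The omentum is a sheet of visceral fat that carries milky spots, small clusters of lymphocytes and macrophages on a scaffold of fibroblastic reticular cells. RNA-seq was performed on 1 omentum library of WT mice and 1 of Postn-DTR mice, both collected 5 days after diphtheria toxin (DT), so that the toxin is common to both. Postn-DTR mice are heterozygous for a diphtheria toxin receptor inserted into the first coding exon of Postn, which encodes periostin. The receptor is therefore driven by the Postn promoter, which is used by fibroblastic reticular cells of the milky spots and by other mesenchymal cells. The insertion interrupts the Postn coding sequence of that allele, so for Postn itself fewer expressing cells and the interrupted allele cannot be told apart. The labels give no age or sex of the mice and do not say whether a library came from 1 animal or from a pool. With 1 library per genotype there is no replicate check on any difference, and no p-value is given.

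A dividing cell copies its DNA in S phase and separates the copies in mitosis. Genes of the replication machinery are classically switched on at the end of G1 by E2F transcription factors, once the retinoblastoma family of pocket proteins releases them. Most mitotic genes peak later, under the DREAM, B-MYB and FOXM1 complexes that act through a promoter element called the cell cycle genes homology region (CHR). Milky spots hold lymphocytes and macrophages that can divide locally, and in whole tissue the cell cycle genes report on all dividing cells together.

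Postn had 58.3 FPKM (fragments per kilobase of transcript, scaled to the mapped fragments of the library) in WT against 16.2 FPKM in Postn-DTR, which was 3.61-fold lower. Aldh1a2, the retinoic acid synthesising enzyme of the targeted reticular cells and also of mesothelium, had 85.5 and 63.3 FPKM. The steps between low FPKM values corresponded to about 23400000 counted fragments in the WT library and 24000000 in the Postn-DTR library, so that 1 FPKM in a transcript of 2000 bases stood for 41.8 and 43.3 reads. The 2 libraries also stood apart in pancreatic acinar transcripts, whose summed level over 31 genes was 12900 FPKM in WT against 21.7 FPKM in Postn-DTR, with 29 of the 29 genes compared at least 2-fold lower. The medians of the cell cycle genes without the acinar transcripts are given beside the comparison of replication with mitotic members.

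The promoters of 5 members are printed because the 2 groups differ in the letters they carry, and because Mcm5 and Top2a were the lowest members of their groups relative to WT while Cdk1 was close to equal. Each line gives the 160 bases just before the RefSeq transcription start on build GRCm38.p6, 5′ to 3′ on the strand of the gene. Capitals mark E2F-like letters (TTTCGCGC, TTTGGCGC, TTTCCCGC or TTTGCCGC, on either strand) and CHR-like letters (TTTGAA or TTCGAA, on either strand).
Mcm5, chr8:75109349-75109508, plus strand: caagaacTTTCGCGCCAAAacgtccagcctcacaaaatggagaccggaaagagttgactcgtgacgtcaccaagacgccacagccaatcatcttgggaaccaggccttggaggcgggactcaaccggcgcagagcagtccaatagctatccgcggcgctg
Mcm6, chr1:128359706-128359865, minus strand: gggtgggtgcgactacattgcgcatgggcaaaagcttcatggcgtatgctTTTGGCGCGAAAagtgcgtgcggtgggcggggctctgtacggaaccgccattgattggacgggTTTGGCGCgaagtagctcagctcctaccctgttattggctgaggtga
Top2a, chr11:99024190-99024349, minus strand: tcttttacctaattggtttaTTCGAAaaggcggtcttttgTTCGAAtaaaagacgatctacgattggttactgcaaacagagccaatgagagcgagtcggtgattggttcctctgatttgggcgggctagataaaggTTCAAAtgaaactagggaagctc
Cdk1, chr10:69352913-69353072, minus strand: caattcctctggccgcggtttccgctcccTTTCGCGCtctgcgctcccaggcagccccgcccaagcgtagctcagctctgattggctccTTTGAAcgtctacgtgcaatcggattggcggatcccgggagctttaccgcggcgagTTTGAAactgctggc
Cdc20, chr4:118437344-118437503, minus strand: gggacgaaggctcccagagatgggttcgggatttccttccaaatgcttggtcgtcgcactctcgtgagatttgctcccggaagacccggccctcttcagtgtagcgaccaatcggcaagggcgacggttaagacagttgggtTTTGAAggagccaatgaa
Mcm5 and Mcm6 carry only E2F-like letters here, Top2a and Cdc20 only CHR-like letters, and Cdk1 carries both. In Mcm5 the capitals are 2 overlapping matches, on opposite strands, that begin 153 and 149 bases before the start. In Top2a the 3 CHR-like matches begin 140, 120 and 23 bases before the start. In Cdk1 the E2F-like match lies 131 bases before the start and the CHR-like matches lie 71 and 15 bases before it.

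Most of the cell cycle genes were modestly lower in the Postn-DTR omentum. The difference of a gene is given below as its change, which is log2(FPKM + 1) in Postn-DTR minus that in WT and understates the fold of genes with low FPKM. Genes were compared where their mean over both libraries was at least 1 FPKM, which held for 13127 genes and for 31 of the 34 members. Ccne2, Cenpe and Cenpf were under that minimum. Of the 31 members, 28 had a change below 0, whereas 48.1% of all genes compared did. The median change of the 31 was -0.36 and the median of all genes compared was 0.02. The members ranged from -0.96 to 0.07, so none was at least 2-fold lower or higher on this scale, against 3.12% and 3.88% of all genes compared. At the smaller threshold of 1.5-fold, 5 members were lower (Mcm5, Tk1, E2f1, Top2a and Aurka) and 0 were higher, against 8.84% and 9.86% of all genes compared. In bulk tissue, fewer dividing cells and less of each transcript per cell cannot be told apart.

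No member was at 0 in either library, and the summed level of the 34 was 352 FPKM in WT against 282 FPKM in Postn-DTR. Pcna was the most abundant member and Cenpf in Postn-DTR was the lowest value. The plot of levels shows that the open circles, for WT, lie to the right of the filled ones for nearly every gene, and that the genotypes differed by much less than the genes differed among themselves.

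**Figure D1:**
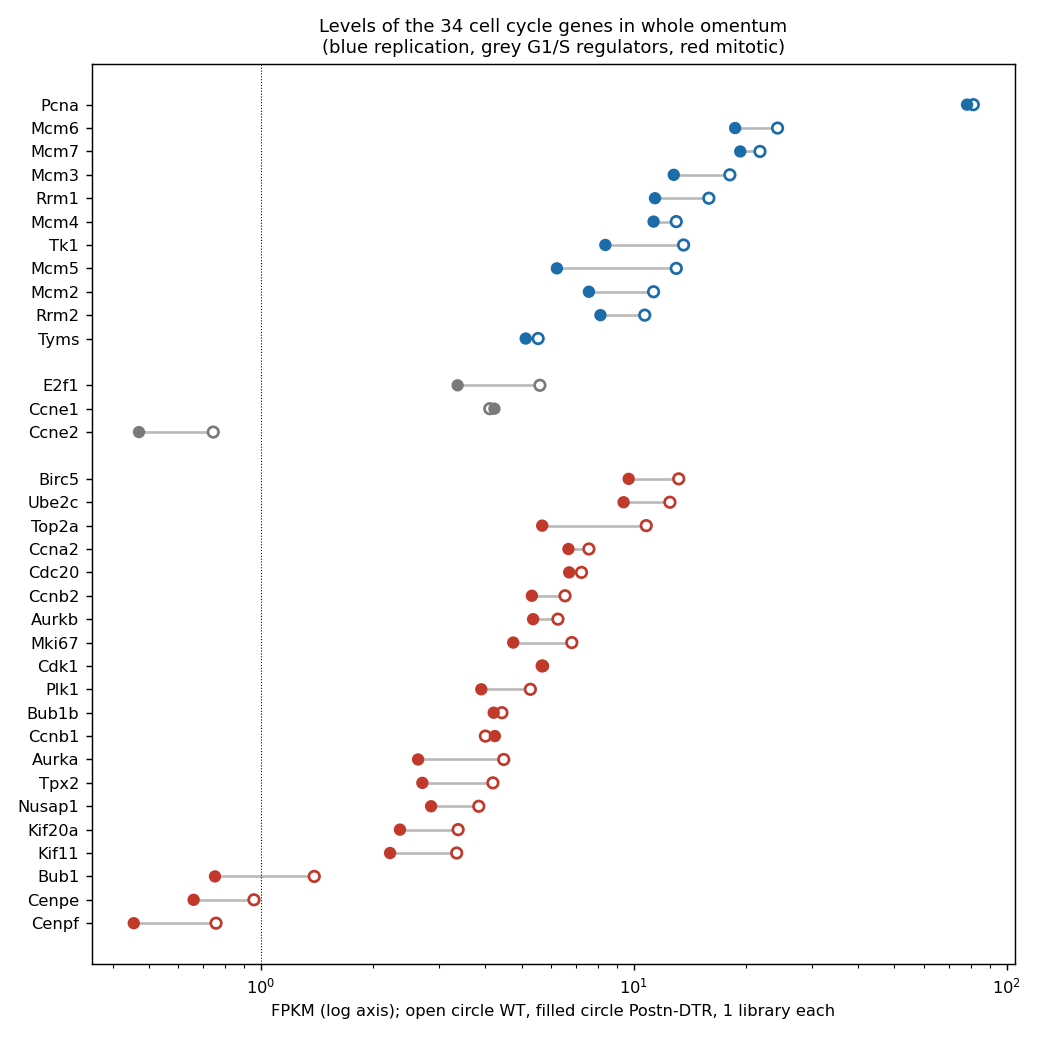
Level of each of the 34 cell cycle genes in FPKM (log axis) in the WT library (open circle) and the Postn-DTR library (filled circle), with a grey line joining both values of a gene. Genes are grouped as replication (blue), G1/S (grey) and mitotic (red), and the dotted line marks 1 FPKM. Pcna lies apart at 81.4 and 78.3 FPKM, and the widest gaps are those of Mcm5, Top2a and Bub1.

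The number of reads behind each value set how closely a ratio was known. From the counted fragments and the transcript lengths, the members had an estimated 49 to 2488 reads in WT and 32 to 2482 in Postn-DTR. The 95% interval of the Postn-DTR to WT ratio (exact Clopper-Pearson, covering counting error only and not the spread between animals) lay below 1 for 23 of the 34 members, included 1 for 11 and lay above 1 for 0. Among the 31 members compared it lay below 1 for 21. Among 12224 genes compared that have a coding transcript, the interval lay below 1 for 33.9% and above 1 for 38.1%.

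**Figure D2:**
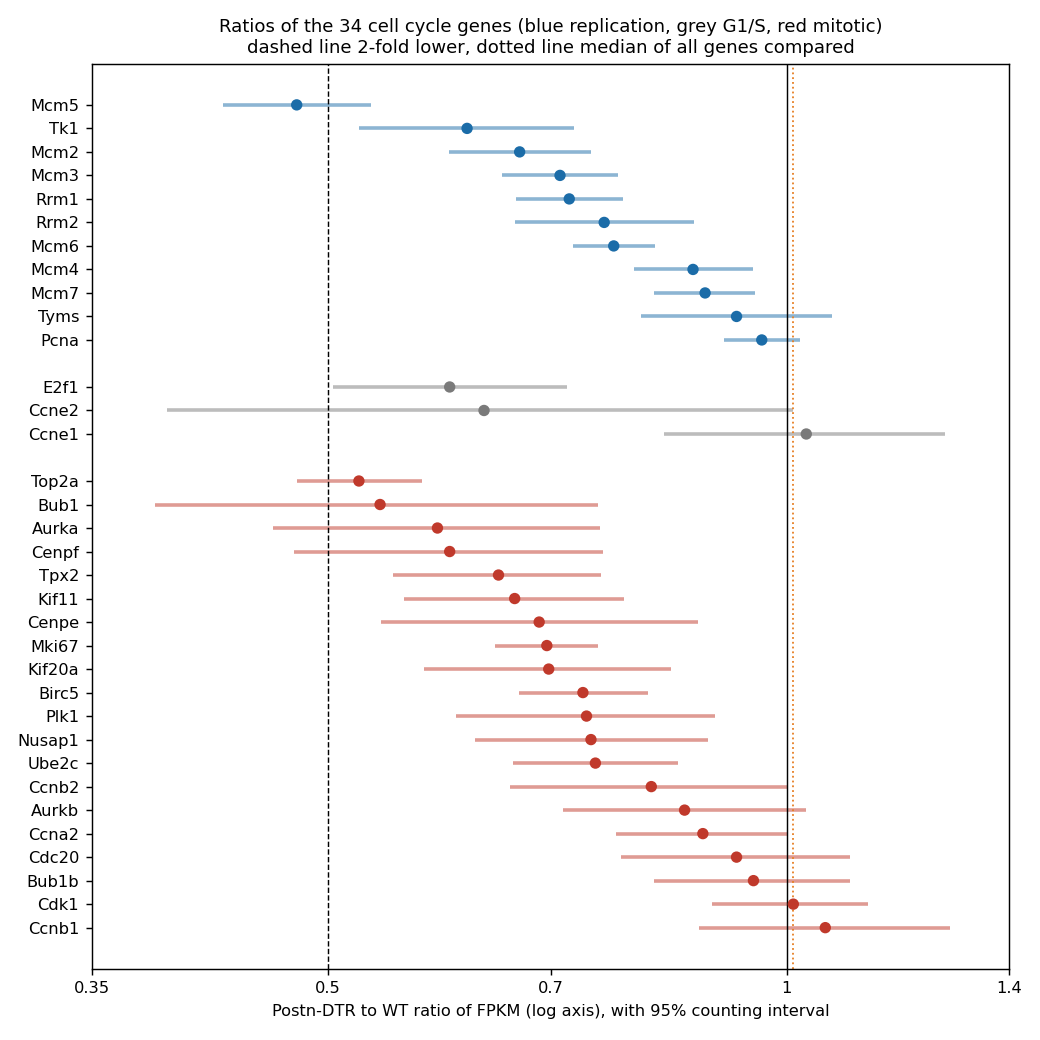
Ratio of FPKM in Postn-DTR to WT for each of the 34 cell cycle genes (log axis), with bars for the 95% counting interval, which does not cover the spread between animals. Colours give the group of the gene, the solid line is a ratio of 1, the dashed line is 2-fold lower and the dotted line is the median of all genes compared. Mcm5 at 0.477 and Top2a at 0.524 are lowest, and Ccne1, Cdk1 and Ccnb1 are the only points to the right of 1.

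The replicative helicase genes were all lower in Postn-DTR but to unequal degrees. Mcm2 to Mcm7 encode the 6 subunits of the ring that unwinds DNA ahead of the replication fork, each present once per ring. Mcm5 (ENSMUSG00000005410, chr8:75109569-75128439, plus strand) had 13.0 FPKM in WT against 6.22 FPKM in Postn-DTR. This was the largest difference among the members, 2.09-fold on the plain ratio of FPKM (interval of the Postn-DTR to WT ratio 0.427 to 0.534) and a change of -0.96, and 3.49% of all genes compared had a more negative change. Mcm2 followed with 11.3 and 7.58 FPKM, and Mcm3 with 18.1 and 12.8 FPKM, changes of -0.53 and -0.46. Mcm6, the most abundant subunit transcript in WT, had 24.3 and 18.7 FPKM, a change of -0.36 (interval of the ratio 0.724 to 0.819 on an estimated 2352 and 1867 reads). Mcm4 had 13.0 and 11.3 FPKM, and Mcm7 21.8 and 19.3 FPKM. These last subunits differed least, with changes of -0.19 and -0.17, and their intervals still lay below 1.

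The proportions of the helicase transcripts therefore differed between the libraries. The highest Mcm level was 2.14 times the lowest in WT (Mcm6 over Mcm2) and 3.1 times the lowest in Postn-DTR. In Postn-DTR these were other genes, Mcm7 over Mcm5. Mcm5 was at 0.597 of the level of Mcm7 in WT and at 0.323 of it in Postn-DTR. Mcm7 overlaps the coding genes Ap4m1 and Cops6, and whether the authors counted reads by strand is not given in the sources used here, so its value may hold reads of its neighbours. Mcm3 has no such neighbour, and against it Mcm5 stood at 0.72 in WT but at 0.484 in Postn-DTR.

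Pcna, the sliding clamp that holds DNA polymerase on its template, was close to equal in both genotypes. Pcna (ENSMUSG00000027342, chr2:132249162-132253314, minus strand) had 81.4 FPKM in WT against 78.3 FPKM in Postn-DTR, a change of -0.05 with an interval of the ratio of 0.91 to 1.02. The clamp also serves DNA repair, and the annotation lists 2 Pcna pseudogenes whose reads may be shared with it. Without Pcna, the summed level of the other 10 replication members was 147 FPKM in WT against 109 FPKM in Postn-DTR.

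The genes of deoxynucleotide supply were lower as well, apart from Tyms. Rrm1 and Rrm2 encode the large and the small subunit of ribonucleotide reductase, which makes deoxynucleotides. Rrm1 had 15.9 and 11.4 FPKM and Rrm2 had 10.7 and 8.14 FPKM in WT and Postn-DTR, changes of -0.44 and -0.36. Both subunits kept nearly the same proportion, with Rrm2 at 0.676 of the level of Rrm1 in WT and 0.712 in Postn-DTR. Tk1, the cytosolic thymidine kinase of the salvage route, had 13.6 and 8.39 FPKM, a change of -0.64 with an interval of the ratio of 0.524 to 0.725. Tk1 (ENSMUSG00000025574, chr11:117815526-117826092, minus strand) overlaps the coding genes Afmid and Gm20708. Tyms, the thymidylate synthase of the de novo route, had 5.54 and 5.13 FPKM, and its interval of 0.802 to 1.07 included 1. A Tyms pseudogene is annotated.

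The regulators of entry into S phase differed among themselves. E2f1, the activator that switches on replication genes, had 5.6 FPKM in WT against 3.37 FPKM in Postn-DTR. Its change was -0.60 and the interval of its ratio was 0.504 to 0.718. Ccne1, which encodes the cyclin E that activates CDK2 at the start of S phase, had 4.11 and 4.23 FPKM, an interval of 0.831 to 1.27. Its paralog Ccne2 was scarce, with 0.745 and 0.471 FPKM on an estimated 49 and 32 reads, and its interval of 0.392 to 1.01 was the widest of the 3 and reached 1. The ratio of Ccne2 to Ccne1 was 0.181 in WT and 0.111 in Postn-DTR. Ccne2 overlaps the coding gene Ints8.

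The mitotic kinase Cdk1 and its cyclin Ccnb1 were near equal in both genotypes, and the cyclins Ccna2 and Ccnb2 were somewhat lower. Cdk1 (ENSMUSG00000019942, chr10:69335146-69352938, minus strand), the kinase that drives entry into mitosis, had 5.68 FPKM in WT against 5.71 FPKM in Postn-DTR, an interval of the ratio of 0.893 to 1.13. Ccnb1, its main partner cyclin, had 4.0 and 4.24 FPKM, an interval of 0.876 to 1.28. The libraries were within counting error of each other for both genes. Ccna2, the cyclin of S and G2 phase, had 7.58 and 6.68 FPKM, and Ccnb2 had 6.54 and 5.33 FPKM. The intervals of Ccna2 and Ccnb2 reached 1.0, and Ccnb1 and Ccnb2 have annotated pseudogene copies. Ccna2 overlaps the coding gene Exosc9.

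Genes of chromosome structure and of the dividing state were among the lower ones. Top2a (ENSMUSG00000020914, chr11:98992943-99024189, minus strand) encodes the topoisomerase that untangles sister chromosomes. It had 10.8 FPKM in WT against 5.68 FPKM in Postn-DTR, 1.91-fold lower on the plain ratio, with an interval of 0.477 to 0.576 on an estimated 1268 and 685 reads. Its change of -0.82 was the most negative of the mitotic members, and 4.52% of all genes compared had a more negative one. Top2a stood at 1.9 times the level of Cdk1 in WT and at 0.993 times in Postn-DTR. Mki67, which coats mitotic chromosomes and is the usual marker of dividing cells, had 6.82 and 4.75 FPKM, a change of -0.44 with an interval of 0.644 to 0.752. Birc5, the survivin subunit of the chromosomal passenger complex, had 13.2 and 9.69 FPKM, a change of -0.41. Aurkb, the kinase of that same complex, had 6.26 and 5.37 FPKM with an interval of 0.713 to 1.03 that included 1.

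Spindle genes were lower by similar amounts. Aurka, the kinase of the spindle poles, had 4.48 and 2.64 FPKM, a change of -0.59, and its activator on spindle microtubules Tpx2 had 4.19 and 2.71 FPKM, a change of -0.48. The level of Aurka was 0.716 of that of Aurkb in WT and 0.493 in Postn-DTR. Kif11, the motor that pushes the poles apart, had 3.35 and 2.22 FPKM, and Kif20a, a motor of cytokinesis, had 3.38 and 2.36 FPKM. Nusap1, which bundles spindle microtubules, had 3.84 and 2.86 FPKM. The intervals of all 5 lay below 1, with Kif20a overlapping Cdc23 and Nusap1 overlapping Oip5. Plk1, a kinase of mitotic entry and spindle assembly, had 5.28 and 3.9 FPKM, an interval of 0.607 to 0.897.

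Kinetochore and checkpoint genes included the least abundant members. Bub1, a checkpoint kinase, had 1.39 FPKM in WT against 0.753 FPKM in Postn-DTR, 1.85-fold lower on the plain ratio on an estimated 104 and 58 reads (interval 0.385 to 0.752). Its paralog Bub1b, which encodes the checkpoint protein BUBR1, had 4.43 and 4.21 FPKM, an interval of 0.818 to 1.1. The kinetochore proteins Cenpe and Cenpf, under the minimum for comparison, had 0.958 and 0.66 FPKM and 0.758 and 0.456 FPKM. Both had intervals below 1, of 0.542 to 0.874 and 0.475 to 0.758. The anaphase-promoting complex is represented by its activator Cdc20 and its ubiquitin-conjugating enzyme Ube2c. Cdc20 had 7.24 and 6.71 FPKM, an interval of 0.778 to 1.1, and Ube2c had 12.5 and 9.39 FPKM, an interval of 0.661 to 0.849. Cdc20 overlaps the coding gene Elovl1, and Ube2c overlaps Tnnc2.

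The replication members and the mitotic members differed between the genotypes by nearly the same amount. The median change was -0.36 over the 11 replication members and -0.37 over the 18 mitotic members compared. All 11 replication members and 16 of the 18 mitotic members had a change below 0. The ratio was below 1 beyond counting error for 9 of the 11 replication members and for 13 of the 20 mitotic members. Among genes compared that have a coding transcript this held for 33.9%. The 20 include Cenpe and Cenpf, which were under the minimum for comparison and whose intervals lay below 1. The fewest estimated reads in WT were 382 for a replication member and 104 for a mitotic member, so these counts were not equally precise. The range was from -0.96 to -0.05 for replication and from -0.82 to 0.07 for mitosis, so each group held members close to equal (Pcna and Tyms, and Cdk1, Ccnb1 and Bub1b) and members close to 2-fold lower (Mcm5, and Top2a). The replication genes were the more abundant, with a median of 13.6 FPKM in WT against 11.3 FPKM in Postn-DTR, against 4.88 and 4.23 FPKM for the mitotic genes. The similarity of the medians depended on the pseudocount, which weighs more on the lower levels of the mitotic genes. With 5 added in place of 1, the medians were -0.31 and -0.18.

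The FPKM total differed between the libraries, and the scale between them cannot be fixed from 1 library each. When the acinar transcripts were removed and each library kept its own total, the medians of the replication and mitotic members were -0.39 and -0.40 and 29 of 31 members had a change below 0, Cdk1 now among them. When the acinar transcripts were removed and both libraries were also set to the same total FPKM, the median of all genes compared shifted by -0.30 to -0.29, and the medians of the replication and mitotic members were -0.69 and -0.63. All 31 members compared then had a change below 0, including Ccne1, Ccnb1 and Cdk1, which were above 0 as deposited. Most genes compared were then also below 0, as their median was -0.29. Mcm5 and Top2a were at least 2-fold lower, against 789 of 13131 genes compared. At that scale 19 members, in place of 5, were at least 1.5-fold lower, against 21.5% of all genes compared. With the libraries set to the same 75th percentile, both medians were -0.43 and the median of all genes was -0.05. Ccne1 and Cdk1 were then below 0, and Mcm5 was at least 2-fold lower, against 480 of 13132 genes compared. Under each scaling the members' medians were below the median of all genes. Over the 20 members compared that have no overlapping coding gene and no pseudogene copy, the median change was -0.44 and 18 were below 0.

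Other genes of the same processes, listed by function, were lower to a similar or smaller degree. Of 43 further replication genes, 40 were compared, 32 had a change below 0 and the median was -0.24, with 6 at least 1.5-fold lower and 0 higher. The most abundant of them were Rfc2, of the clamp loader, with 25.9 and 21.5 FPKM, Rpa1, which binds single-stranded DNA, with 24.7 and 19.9 FPKM, Slbp, which binds histone mRNA, with 21.6 and 18.2 FPKM, and Gins4, of the helicase complex, with 20.6 and 18.1 FPKM. Of 55 further mitotic genes, 46 were compared, 37 had a change below 0 and the median was -0.32, with 9 at least 1.5-fold lower and 1 at least 1.5-fold higher. Among all genes compared, 8.84% were at least 1.5-fold lower, 9.86% at least 1.5-fold higher and 3.12% at least 2-fold lower. On the log2(FPKM + 1) scale 1 of the 46 was at least 2-fold lower, the mitotic kinase Pbk, with 3.74 and 1.15 FPKM and a change of -1.14. Some further genes of low level were past 2-fold on the plain ratio of FPKM alone. The most abundant went different ways. Pttg1, which encodes securin, had 41.7 FPKM in WT against 60.2 FPKM in Postn-DTR, Smc4, of condensin, had 19.1 and 15.2 FPKM, and the CDK-binding proteins Cks1b and Cks2 had 26.7 and 26.2 FPKM and 12.2 and 13.1 FPKM.

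Among other regulators of the cell cycle, the D-type cyclins of G1 were lower and several cell cycle inhibitors were higher. Their part in the levels of the members was not tested. Ccnd1, a cyclin that carries growth signals to CDK4 and CDK6, had 34.8 FPKM in WT against 13.4 FPKM in Postn-DTR, a change of -1.32, and its relatives Ccnd2 and Ccnd3 had 46.9 and 31.6 FPKM and 84.8 and 67.7 FPKM. Their kinase Cdk4 (91.0 and 91.6 FPKM) and the repressor E2f4 (35.9 and 35.6 FPKM) were close to equal. Ccnd1 is expressed by stromal and epithelial cells rather than by lymphocytes in general, but which cells its difference came from was not tested. Over the 16 G1 cyclins, CDKs and pocket proteins compared, 12 had a change below 0 and the median was -0.16. Over 16 CDK inhibitors and growth arrest genes the median was 0.39 and 11 were above 0. Cdkn1a, which encodes the CDK inhibitor p21 and responds to p53 among other signals, had 33.7 and 112 FPKM, and Gadd45g, a stress-induced growth arrest gene, had 12.8 and 101 FPKM, changes of 1.71 and 2.89. Trp53 itself had 58.0 and 42.8 FPKM, and the INK4 inhibitor Cdkn2c had 81.5 and 51.4 FPKM.

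**Figure D3:**
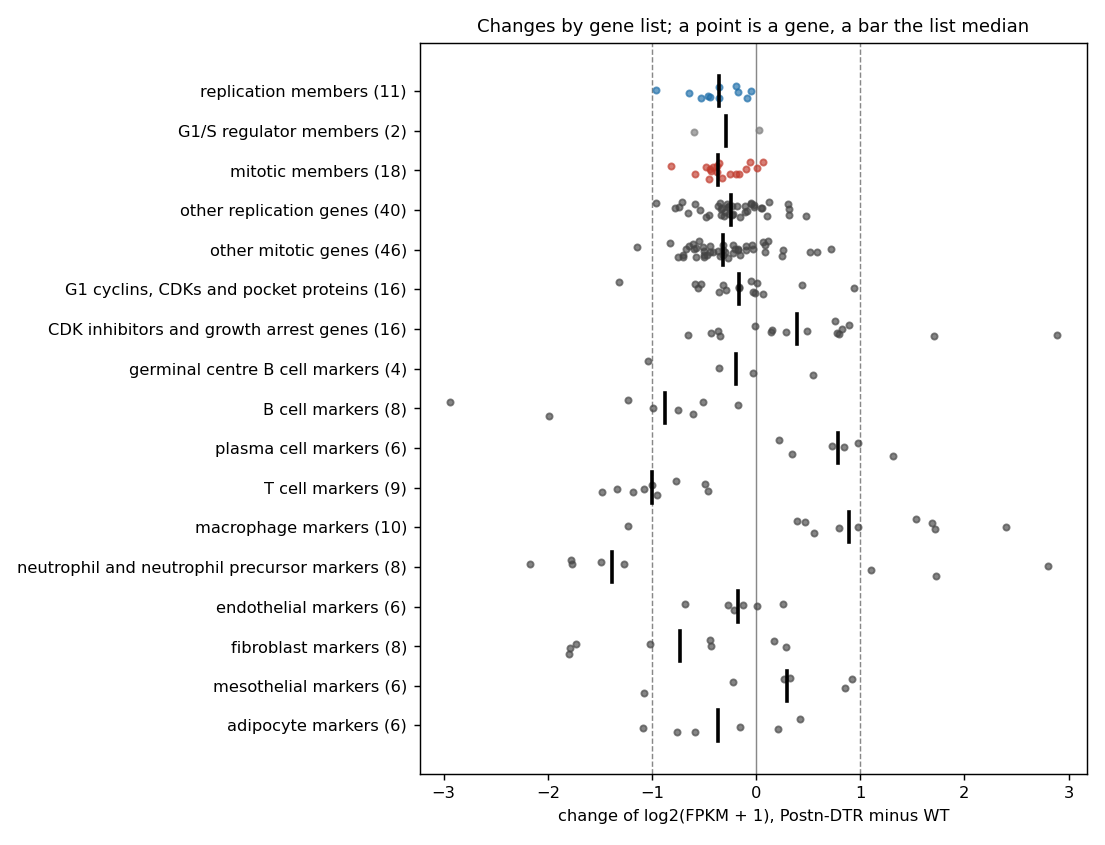
Change of each gene compared, log2(FPKM + 1) in Postn-DTR minus WT, by list, with the number of genes in brackets and a black bar at the median of the list. Dashed lines mark 2-fold lower and higher. The replication and mitotic members lie between -0.96 and 0.07, inside the spread of the lymphocyte and macrophage markers, which extend past 2-fold in opposite directions.

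Markers of cell types that can divide in milky spots differed by more than the cell cycle genes, and in opposite directions. The B cell markers were lower for 8 of 8, their median change was -0.87 and their summed level was 521 FPKM in WT against 350 FPKM in Postn-DTR. The T cell markers were lower for 9 of 9, with a median of -1.0 and a summed level of 98.7 and 45.3 FPKM. The macrophage markers were higher for 9 of 10, with a median of 0.89 and a summed level of 566 and 1330 FPKM. The plasma cell markers, of cells that have mostly left the cycle, were higher for 6 of 6, with a median of 0.79 and a summed level of 786 and 1430 FPKM. B and T lymphocyte markers were thus lower, and macrophage and plasma cell markers were higher.

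Single markers show the same split, to unequal degrees. Cd79a and Csf1r, the most abundant B cell and macrophage markers in WT, differed less, with 191 and 170 FPKM and 158 and 219 FPKM. Ms4a1, which encodes the B cell antigen CD20, had 56.8 and 23.6 FPKM, and Cd4 had 11.3 and 3.41 FPKM. Adgre1, which encodes the macrophage antigen F4/80, had 41.1 and 138 FPKM, and Cd68 had 114 and 369 FPKM. Ccr2, of recruited monocytes, had 39.6 and 16.4 FPKM, whereas Ly6c2 of the same list went the other way, with 50.9 and 150 FPKM. Germinal centre B cell markers, of a rapidly dividing stage, were few: 4 of 7 were compared and their median change was -0.20, with Fas at 19.9 and 29.6 FPKM, Bcl6 at 13.6 and 13.3 FPKM, S1pr2 at 13.5 and 10.3 FPKM and Gcsam at 2.3 and 0.603 FPKM. No marker of these 5 lists was at 0 in a library. The part of cell composition in the values of the cell cycle genes was not tested.

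Other cells of the omentum also differed. Neutrophil and precursor markers were mixed, with 5 of 8 at least 2-fold lower and 3 at least 2-fold higher. The granule genes Mpo, Elane, Camp, Ngp and Ltf were lower. Prtn3, also a granule gene, and the receptors Cxcr2 and Csf3r were higher. The fibroblast markers had a median change of -0.73 with 4 of 8 at least 2-fold lower, the adipocyte markers -0.37, the endothelial markers -0.17 and the mesothelial markers 0.30. The erythrocyte markers were higher for 3 of 3 compared. Their part in the values of the members was not tested.

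The promoters of replication and mitotic members carried different letters although the groups differed alike in level. A RefSeq promoter window, from 250 bases before to 50 bases after the start, was found for 28 of the 34 members and for 27025 genes in all. Mcm4, Ccne2, Ccna2, Aurkb, Kif20a and Tpx2 had none. E2F-like letters were in 4 of 10 replication members (Mcm3, Mcm5, Mcm6 and Mcm7), in 1 of 16 mitotic members (Cdk1), and in 2.6% of all genes with a window. CHR-like letters were in 2 of 10 replication members (Mcm2 and Mcm7), in 12 of 16 mitotic members, and in 21.7% of all genes. CCAAT, the box bound by NF-Y and searched on both strands, was in 8 of 10 and 14 of 16, against 41.1% of all genes. The E2F-like and CHR-like letters do not contain each other, and E2F-like matches on opposite strands can overlap, as in Mcm5 and Mcm6.

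The further genes had similar shares. E2F-like letters were in 38.7% of the 31 further replication genes with a window and in 8.89% of the 45 further mitotic genes, and CHR-like letters in 16.1% and 71.1%. Among the genes compared, 4.43% of 9953 had E2F-like letters and 16.5% had CHR-like letters. These are matches of letters, not bound sites, and a window without them says only that those letters are not in it.

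**Figure D4:**
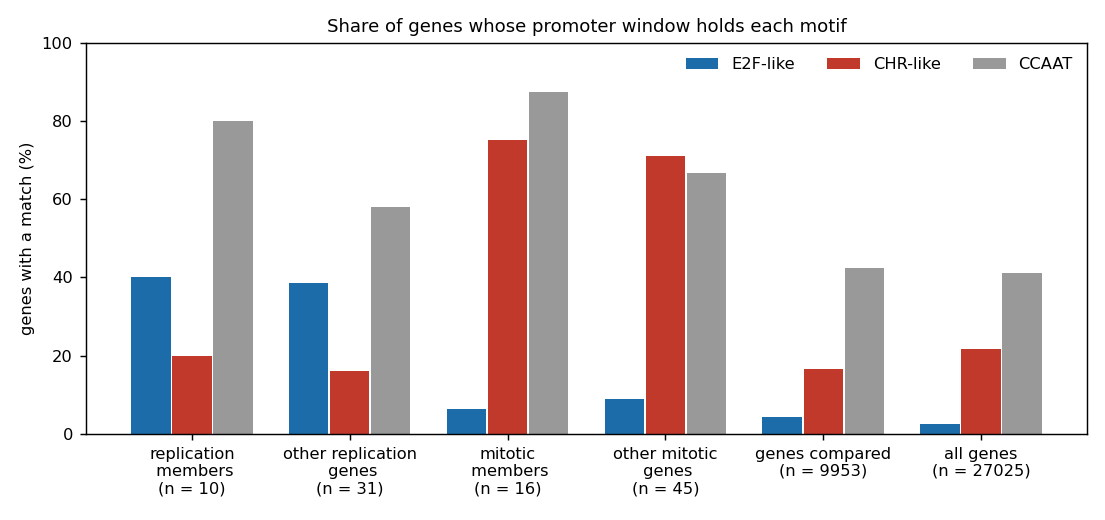
Percent of genes whose promoter window (250 bases before to 50 after the RefSeq start) holds E2F-like (blue), CHR-like (red) or CCAAT (grey) letters on either strand, by gene set, with the number of genes with a window. E2F-like letters are more frequent in the replication sets (40.0% and 38.7%) and CHR-like letters in the mitotic sets (75% and 71.1%).

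The letters did not sort the members by their difference between the genotypes. The median change was -0.36 over the 5 members compared with E2F-like letters and -0.38 over the 21 without, and -0.38 over the 13 with CHR-like letters and -0.36 over the 13 without. Small and large differences occurred with either kind of letters. Mcm5 and Mcm7, both with E2F-like letters, had changes of -0.96 and -0.17. Top2a and Cdc20, both with CHR-like letters, had changes of -0.82 and -0.10. Mcm7 also has CHR-like letters, and Mcm7 and Cdc20 overlap other coding genes, so their values may hold reads of neighbours.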

How the data were processed

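Total RNA of whole omentum was made into stranded mRNA libraries, 1 WT and 1 Postn-DTR, per the labels. The deposited values are FPKM per gene, normalized by the authors. The submitters' processing notes name TopHat2 2.1.1, Bowtie2 2.2.8, SAMtools 0.1.18, Cuffdiff 2.2.1 and mm10. The annotation and the use of strand in counting are not given in the sources used here. FPKM depends on the other transcripts of a library, so no absolute scale is fixed between libraries.

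From the deposited FPKM, changes of log2(FPKM + 1) were computed with Python 3.11.15, numpy 2.4.6, pandas 2.3.3 and scipy 1.17.1 for genes with a mean of at least 1 FPKM, and plotted with matplotlib 3.10.9. Coordinates and transcript lengths are from GENCODE release 21 of the mouse (GRCm38), which held all 34 members and 95.7% of the listed genes. Reads were estimated from the step between low FPKM values, with an effective length 210 (WT) or 200 (Postn-DTR) bases shorter than the transcript. In genes kept out of that estimate, 82.4% and 77.7% of values below 6.5 reads were within 0.1 of a whole read, where evenly spread values would give 20%. The estimated reads and their intervals are approximate, since a gene is treated as its longest coding transcript. The calculation was tested on simulated data.

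The members and all gene lists were chosen with earlier results of these data known. All 34 members are named. From 17 further lists, genes at least 2-fold different and the 4 most abundant could be named. The alternatives were pseudocounts of 0.1 and 5, no filter or a mean of at least 5 FPKM, 3 other scalings and, chosen after seeing the data, acinar genes removed at each library's own total and members with no overlapping coding gene and no pseudogene copy.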

Additional observations from a re-analysis of the deposited data

How the results depend on the processing

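Directions held under the alternatives run for the medians of both groups, and sizes did not. With a pseudocount of 0.1 the mitotic median change was -0.42 and 1 member (Mcm5) was at least 2-fold lower, where the values as reported are -0.37 and 0. There, 7 of 31 members were at least 1.5-fold lower in place of 5, against 11.9% of all genes compared. With a pseudocount of 5 the replication and mitotic medians were -0.31 and -0.18. The mitotic minus replication difference was then 0.13 in place of -0.01. At that pseudocount 1 of 31 members was at least 1.5-fold lower in place of 5, against 3.98% of all genes compared. With a mean of at least 5 FPKM the mitotic median was -0.25 and the difference was 0.11. Of the 20 members that passed that filter, 3 were at least 1.5-fold lower, against 7.02% of all genes compared. With the same 75th percentile both medians were -0.43 and 1 member (Mcm5) was at least 2-fold lower. With acinar genes removed and the same total FPKM the medians were -0.69 and -0.63, the difference was 0.06, 2 members (Mcm5 and Top2a) were at least 2-fold lower and 19 at least 1.5-fold lower, where 21.5% of all genes compared were at least 1.5-fold lower. With acinar genes removed and each library at its own total, added after seeing the data, the medians were -0.39 and -0.40. With members that have no overlapping coding gene and no pseudogene copy, chosen after seeing the data, the medians were -0.44 and -0.43. No member was at least 2-fold higher under any of these settings. Over all genes compared, those at least 2-fold lower and higher numbered 410 and 509 of 13127 as reported. They were 643 and 642 of 13127 at the smaller pseudocount, and 168 and 287 of 13127 at the larger. At the stricter filter they were 249 and 372 of 9661. They were 480 and 453 of 13132 at the same percentile, and 789 and 306 of 13131 at the same total. No replicate could be left out with 1 library per genotype. No paired analysis was possible because each genotype has 1 library. Depth limits Ccne2, with an estimated 49 and 32 reads, and Bub1, with 104 and 58.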

Other observations

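Further genes of the same processes, chosen after their values were seen, lay at the ends of their lists. Of the replication genes beyond the members, those at least 1.5-fold lower included Uhrf1, which passes DNA methylation to the new strand, the polymerase subunits Pola1 and Pold1, Clspn of the replication checkpoint and Gins2 of the helicase complex. Uhrf1 had 8.71 FPKM in the WT library against 4.0 in the Postn-DTR library, and Pola1 had 3.19 against 1.52. Of the further mitotic genes, the lower ones were the kinetochore genes Spc24 and Spc25, the motors Kif23, Kif15 and Kifc1, the midbody gene Cep55, the spindle gene Dlgap5, the condensin gene Ncapd2, and Pbk. Kif23 had 3.99 FPKM against 1.82 and Cep55 had 3.09 against 1.52. Cdkn3, a phosphatase of CDKs, was the gene of that list at least 1.5-fold higher, with 1.73 FPKM against 3.49.

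Of the 16 CDK inhibitors and growth arrest genes, 7 were at least 1.5-fold higher in the Postn-DTR library and 1, Cdkn2c, was at least 1.5-fold lower. Among all genes compared, 9.86% were at least 1.5-fold higher and 8.84% lower. Myc, a transcription factor of cell growth, was the gene of the G1 list at least 1.5-fold higher, with 15.5 FPKM in WT against 30.7, while Ccnd1 and Rb1 of that list were at least 1.5-fold lower. Beside Cdkn1a and Gadd45g, the stress-induced Gadd45a and Gadd45b had 4.41 against 8.16 FPKM and 13.0 against 23.2 FPKM, the antiproliferative gene Btg2 had 29.7 against 52.5 FPKM, and the INK4 genes Cdkn2a and Cdkn2d had 1.33 against 3.32 FPKM and 16.2 against 29.4 FPKM. These genes are also used by non-dividing macrophages and stromal cells, and which cells express them was not tested.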
